A study of Arabidopsis thaliana with 64 samples.

Results

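The libraries described here are the 13 RNA libraries whose genotype label starts with ELF3pro::ELF3-Q, out of 38 RNA libraries and 64 samples in the series. They come from Arabidopsis thaliana seedlings that carry an ELF3 transgene under its own promoter, ELF3pro, with a polyglutamine (polyQ) stretch of 0, 7 or 21 residues. Each length had a pair of transgenic lines, given by number in the labels. ELF3pro::ELF3-Q0 had 5 libraries, from line #2 at 22 °C and 27 °C and from line #15 at 22 °C and, in 2 libraries, at 27 °C. ELF3pro::ELF3-Q7 had 3 libraries, from line #6 at both temperatures and from line #17 at 22 °C. ELF3pro::ELF3-Q21 had 5 libraries, from line #7 at 22 °C and, in 2 libraries, at 27 °C, and from line #23 at both temperatures. All seedlings were labelled cultivar Col-0, were grown for 10 days in short days of 8 h light and 16 h dark, and were pooled for RNA. Whether the transgenes sit in plants that lack their own ELF3 is not stated in the labels, which also give no harvest time.

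ELF3 is a scaffold protein of the evening complex, in which it joins ELF4 and the DNA-binding protein LUX. The complex represses clock and growth genes in the evening and at night, and its repression weakens in warm conditions, so that targets such as PIF4, PIF5 and LUX itself are more active. The polyQ stretch lies within a prion-like region of the protein and varies in length between natural accessions. Plants that lack ELF3 flower early and grow long hypocotyls.

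Each library reads the 3' ends of transcripts, so a level below is the number of such tags in CPM, the usual depth-scaled tag count, with TMM scaling over the 13 libraries. Gene counts per library ran from 7150372 to 25649275 with a median of 12063727, and between 7.30% and 35.1% of reads were left uncounted as not uniquely aligned. Sample titles carry a number prefix, 177, 178 or 184, that is unevenly spread over constructs and temperatures. One Q0 library, line #15 at 27 °C replicate 1, was the only one of prefix 177 at 27 °C, and one Q21 library, line #23 at 22 °C, was the only one of prefix 178 at 22 °C. The former stood apart: its median correlation with the other 12 libraries was 0.937, against 0.949 to 0.974 for the rest. Results that change without either library are given both ways. With temperature and prefix terms in a fit, leaving out either library leaves the other fitted exactly. Those fits therefore nearly coincide and are not separate checks. The libraries of a group are labelled as single replicates and nothing says that they came from separate cultures, so the p-values measure only the spread between these libraries, which also spans 2 lines of each construct.

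The ELF3 tag level varied among the lines of a construct as well as between constructs. In Q0, ELF3 was at 154 CPM (line #2, 22 °C), 136 CPM (line #2, 27 °C), 188 CPM (line #15, 22 °C), and 351 and 83.2 CPM (line #15, 27 °C, replicates 1 and 2). In Q7 it was at 52.0 CPM (line #6, 22 °C), 54.6 CPM (line #6, 27 °C) and 121 CPM (line #17, 22 °C). In Q21 it was at 54.1 CPM (line #7, 22 °C), 61.7 and 36.5 CPM (line #7, 27 °C), 117 CPM (line #23, 22 °C) and 109.8 CPM (line #23, 27 °C). The highest 4 levels were all Q0 libraries, and the fifth Q0 library lay below both libraries of Q21 #23 and below Q7 #17. Lines Q7 #6 and Q21 #7 were therefore the low ELF3 lines of their constructs, and Q7 #17 and Q21 #23 the high ones. On a scale set over all 38 RNA libraries, ELF3 was at 29.7, 22.3 and 17.2 CPM in the 3 wild-type Col-0 libraries and at 17.6 and 27.1 CPM in the 2 libraries of the elf3-1 mutant. All 13 polyQ libraries lay above all 5 of these. Only the Col-0 library at 17.2 CPM (prefix 184) and the elf3-1 library at 27.1 CPM (prefix 177) share a title prefix with polyQ libraries. The others have prefix 181, so most of this contrast crosses prefixes. The annotated spans of ELF3 and its neighbour ALPHA-VPE meet at their ends, so the tags there are uncertain, and tags do not tell the transgene from the plant's own gene.

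**Figure D1:**
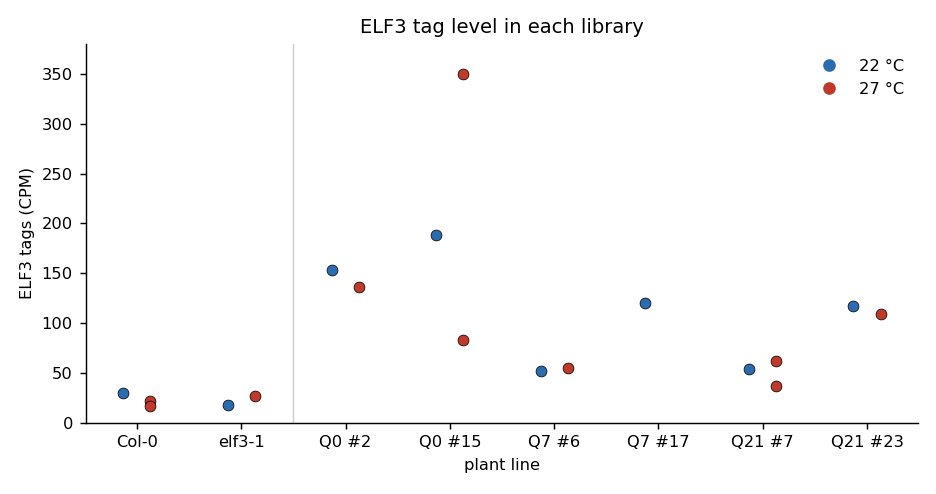
ELF3 tags in CPM (y axis, scaled over 38 RNA libraries) for each plant line (x axis), with 1 point per library, blue at 22 °C and red at 27 °C. All 13 polyQ libraries lie above the Col-0 and elf3-1 libraries, and Q0 #15 at 27 °C holds both the highest value of the 13 and one of 83.0 CPM.

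Fitted over both temperatures, ELF3 was lower in Q21 than in Q0 by a log2 difference of -1.07 ± 0.40 (SE), and this was not called (adjusted p = 0.697). That difference was -0.67 ± 0.38 without Q21 #7 at 22 °C, and -1.08 ± 0.28 without Q0 #15 at 27 °C replicate 1. In the comparison of Q21 with Q0, adjusted p-values come from edgeR's quasi-likelihood test over 18707 loci, with terms for construct, temperature and title prefix, and 7 residual degrees of freedom.

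The evening complex targets were mostly higher in Q21 than in Q0, but the test over all loci called none of them. Across the 18707 loci edgeR called 0 (0%) between Q21 and Q0 at an adjusted p under 0.05, and 1243 had an unadjusted p under 0.05. Of these, 564 loci (3.01%) were higher and 679 (3.63%) lower in Q21. DESeq2 on the same counts called 31 loci (0.166%), 19 higher and 12 lower. Of 14 listed targets 11 passed the filter on low counts, while PRR9, LNK3 and AT1G69570 did not. Of the 11, 8 were higher and 1 lower at an unadjusted p under 0.05, whereas DESeq2 called 2 as higher, LUX and PIF5. The median log2 difference of the 11 was 0.71, against 0.00 for all loci tested.

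LUX encodes the protein that brings the complex to DNA and is itself a target. At 22 °C its level was 9.26 and 7.98 CPM in the Q0 lines #2 and #15, and 21.6 and 17.0 CPM in the Q21 lines #7 and #23. At 27 °C it was 27.4 CPM in Q0 #2 and 17.9 and 26.6 CPM in Q0 #15, against 67.9 and 62.5 CPM in Q21 #7 and 52.4 CPM in Q21 #23. The Q21 libraries lay above the Q0 libraries at each temperature without overlap. The log2 difference was 1.23 ± 0.24 with an adjusted p of 0.271 by edgeR, and 1.21 ± 0.26 with an adjusted p of 0.00503 by DESeq2. Without Q0 #15 at 27 °C replicate 1 it was 1.21 ± 0.22 by edgeR, and with 1 library left out in turn edgeR called it in 0 of 13 fits. On the 38-library scale LUX in Col-0 was at 26.0 CPM at 22 °C and at 60.4 and 65.3 CPM at 27 °C, and in elf3-1 at 102 and 120.1 CPM. In the 184 libraries at 27 °C, the prefix that Col-0 shares with these lines, LUX was at 65.3 CPM in Col-0, 62.4 CPM in Q21 #7 and 26.5 CPM in Q0 #15.

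PIF5, a growth-promoting transcription factor repressed by the complex, had the same order. At 22 °C it was at 4.97 and 4.17 CPM in Q0 and at 10.9 and 6.86 CPM in Q21. At 27 °C it was at 13.97, 8.19 and 11.3 CPM in Q0 and at 29.0, 30.6 and 23.9 CPM in Q21. The groups did not overlap at either temperature. The log2 difference was 1.21 ± 0.22 (edgeR adjusted p = 0.213, DESeq2 adjusted p = 0.00323). It was called by edgeR without Q0 #15 at 27 °C replicate 1 (1.19, adjusted p = 0.0381) and without Q21 #23 at 22 °C (1.19, adjusted p = 0.0378). These fits nearly coincide, so the latter call adds no separate check.

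PIF4, the related factor that drives warm-induced hypocotyl growth, overlapped between constructs. Its levels ran from 3.94 to 8.37 CPM in Q0 with a median of 6.31 CPM, and from 5.60 to 14.3 CPM in Q21 with a median of 10.9 CPM. All 3 libraries of Q21 #7 lay above every Q0 library, and both libraries of Q21 #23 lay within the Q0 range. The log2 difference was 0.71 ± 0.25 (edgeR adjusted p = 0.671).

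Among the clock genes, GI, which sets photoperiodic flowering time with FKF1, was low in every library. It was at 0.403, 0.302, 0.347, 0.311 and 0.977 CPM in the Q0 libraries and at 0.869, 3.24, 2.71, 2.29 and 1.95 CPM in the Q21 libraries. Only the Q0 library of prefix 184 reached the lowest Q21 library. The log2 difference of GI was 1.84 ± 0.42, the highest of the 11 targets (edgeR adjusted p = 0.410). PRR7, a daytime repressor of the morning loop, ran from 2.08 to 4.05 CPM in Q0 and from 4.59 to 5.85 CPM in Q21, with a log2 difference of 0.70 ± 0.24 (edgeR adjusted p = 0.667). PRR7 was the only one of the 11 targets whose 5 Q21 libraries all lay above all 5 Q0 libraries regardless of temperature. Over all loci 23 (0.123%) lay so and 16 (0.0855%) lay wholly below.

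BBX28, a B-box regulator of light responses, was below 0.7 CPM in every Q0 library and at 0.474 to 3.48 CPM in Q21, with a log2 difference of 1.67 ± 0.50. LNK4, a night light-inducible clock-regulated gene, gave 0.87 ± 0.31, and BOA, a close relative of LUX, 0.29 ± 0.13. TOC1, an evening clock repressor, gave 0.29 ± 0.20 and LNK1, an activator of evening genes, 0.37 ± 0.58. ELF4 was the only target with a negative difference, -0.30 ± 0.13, and its levels of 50.2 to 98.7 CPM in Q0 and 51.7 to 86.4 CPM in Q21 overlapped widely. At each temperature taken alone, 5 of the 11 targets had all Q21 libraries above all Q0 libraries, namely GI, PRR7, LUX, PIF5 and BBX28, and 0 had them below. Of all loci, 122 (0.652%) lay above and 71 (0.38%) below in this way.

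**Figure D2:**
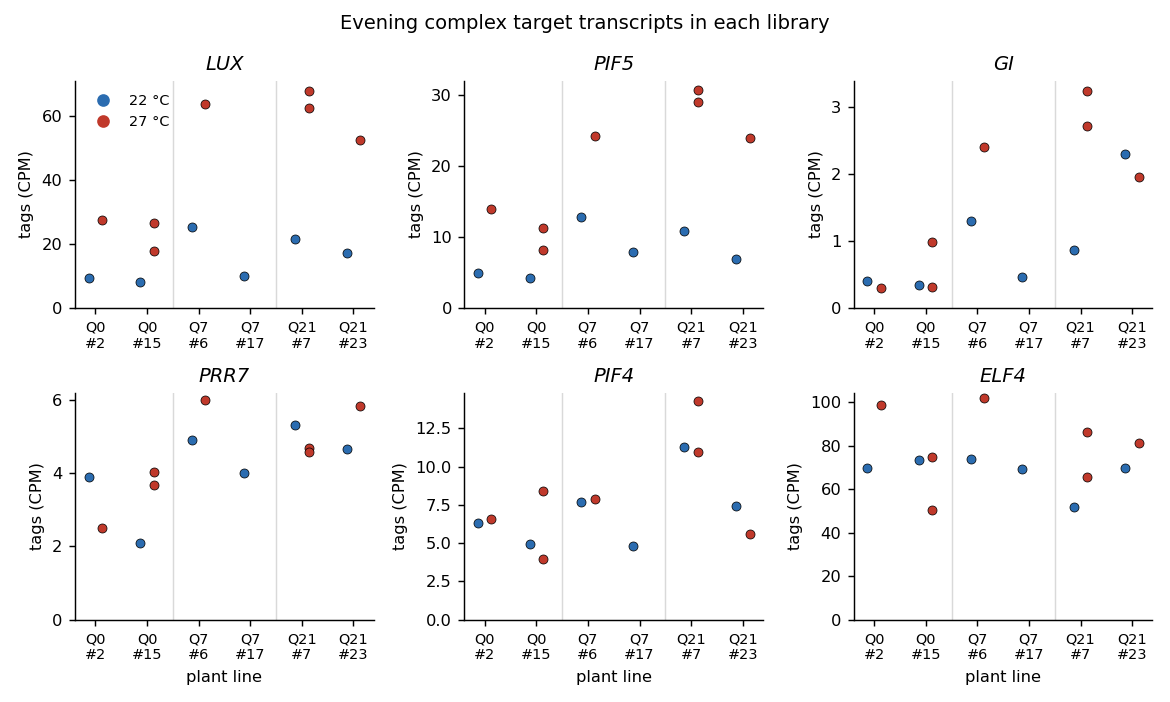
Tags in CPM (y axes, linear from 0) of 6 evening complex targets for each plant line (x axes), 1 point per library, blue at 22 °C and red at 27 °C. LUX and PIF5 are higher in Q21 than in Q0 at each temperature, whereas ELF4 overlaps, and Q7 #17 lies near the Q0 lines in LUX.

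The title prefixes allowed 3 sets of Q0 and Q21 libraries with the same prefix and temperature, described here without a test on log2(CPM + 0.5). LUX differed by 1.28 within prefix 177 at 22 °C (1 Q21 and 2 Q0 libraries), by 1.11 within 178 at 27 °C (2 Q21 and 1 Q0 library) and by 1.22 within 184 at 27 °C (1 of each). PIF5 differed by 1.17, 0.89 and 1.40 in the same sets. Of the 11 targets 8 were higher in Q21 in all 3 sets, as were 15.6% of all loci. ELF3 was lower in Q21 in all 3 sets, by log2 differences of -1.65, -0.72 and -1.18.

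The 6 loci of smallest p that were higher in Q21 with a mean of at least 5 CPM were PKS4, AT1G15830, STO, PIF5, AT5G26270 and ARR9, and edgeR called none of them. PKS4, a phytochrome kinase substrate of phototropism, was at 3.22 and 1.04 CPM at 22 °C and 9.67, 8.29 and 6.70 CPM at 27 °C in Q0. In Q21 it was at 10.1 and 7.41 CPM at 22 °C and at 32.5, 16.0 and 24.1 CPM at 27 °C. Its groups did not overlap at either temperature, and the log2 difference was 1.72 ± 0.26 (edgeR adjusted p = 0.0973, DESeq2 adjusted p = 3.55e-06).

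STO, a B-box protein that acts in light signalling and is also known as BBX24, gave 0.95 ± 0.15, and ARR9, a negative regulator of cytokinin signalling, 0.84 ± 0.15. The unnamed loci AT1G15830 and AT5G26270 gave 1.40 ± 0.21 and 0.75 ± 0.14. All 6 loci lay above Q0 without overlap at each temperature, as did 0.652% of all loci. They were picked by p from these same libraries, so this lack of overlap is no further evidence. Without Q0 #15 at 27 °C replicate 1, edgeR called 7 loci, PKS4, AT1G15830, STO, PIF5, ARR9 and AT2G25920 as higher and CHS as lower, each with an adjusted p of 0.0381. The same 7 loci were called without Q21 #23 at 22 °C, a fit that nearly coincides with the former and is no separate check. All 7 were among the 31 that DESeq2 called.

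The 6 loci of smallest p in the other direction were CHIL, OLEO2, AT3G07660, CHS, ADG1 and GASA4, none of them called by edgeR. CHS, chalcone synthase, the first enzyme of flavonoid synthesis, was at 133, 119, 182, 41.9 and 111 CPM in the Q0 libraries and at 78.8, 73.1, 67.7, 98.4 and 55.7 CPM in the Q21 libraries. Only Q0 #15 at 27 °C replicate 1, at 41.9 CPM, lay within or below the Q21 range. Its log2 difference was -0.88 ± 0.20 (edgeR adjusted p = 0.410, DESeq2 adjusted p = 0.0414), and that of CHIL, a chalcone isomerase-like partner of the pathway, was -0.99 ± 0.17 (edgeR adjusted p = 0.153). ADG1, the small subunit of the starch-synthesis enzyme ADP-glucose pyrophosphorylase, gave -0.53 ± 0.12, the gibberellin-regulated GASA4 -0.83 ± 0.19 and the unnamed AT3G07660 -0.75 ± 0.17.

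OLEO2 encodes an oleosin, a coat protein of seed oil bodies. It was at 2.55 and 3.21 CPM at 22 °C and at 6.19, 4.56 and 24.6 CPM at 27 °C in Q0. In Q21 it was at 0.118 and 1.18 CPM at 22 °C and at 3.64, 3.97 and 3.17 CPM at 27 °C. The log2 difference was -2.36 ± 0.46 (edgeR adjusted p = 0.271), and -3.13 with an adjusted p of 0.0275 without Q0 #2 at 27 °C. The other members of the seed storage list that passed the filter, CRA1, CRU3 and OLEO1, were also lower in Q21, each at an unadjusted p under 0.05. Among all loci tested, 3.63% were lower at that level. These genes were low and overlapped between constructs. CRU3, for example, ran from 0.302 to 5.44 CPM in Q0 and from 0.0395 to 1.34 CPM in Q21. Within prefix 178 at 27 °C, on log2(CPM + 0.5), CRU3 differed by 0.20, OLEO1 by 0.06 and CRA1 by -0.37. Each was lower in Q21 in the other matched sets. Of the 9 listed seed storage genes, 4 passed the filter. Their summed level over the list ran from 5.37 to 44.1 CPM in Q0, 1.36 to 24.1 CPM in Q7 and 0.975 to 8.87 CPM in Q21, and its part in the other differences was not tested. Root markers summed to 1025 to 2828 CPM in Q0 and 1127 to 2144 CPM in Q21, ranges that overlap. Most of that sum was the gene BGLU23. Without BGLU23 the sum was 64.3 to 85.2 CPM in Q0 and 50.4 to 104 CPM in Q21, which also overlap. Of the 7 root markers that passed the filter, 0 had an unadjusted p under 0.05.

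Of 18 listed genes of PIF and auxin growth, which act in hypocotyl and petiole elongation, 15 were tested and 13 had positive differences. Over all 18707 loci tested, 9477 had positive differences. Of the 15, 7 were higher and 0 lower at an unadjusted p under 0.05, against 3.01% and 3.63% of all loci tested. The list's median log2 difference was 0.65. Between the Q21 lines, #23 minus #7, the median of the same list was -0.98, so its levels were not even over Q21. Between the Q7 lines, #17 minus #6, it was -0.52. The 7 included XTH15, a cell wall xyloglucan enzyme, at 0.80 ± 0.16 (edgeR adjusted p = 0.329, DESeq2 adjusted p = 0.0155), PRE1, a growth-promoting helix-loop-helix protein, at 0.99 ± 0.43, and PAR1, a shade-induced growth inhibitor, at 0.64 ± 0.25. In the flowering list, CDF2, a repressor of the flowering gene CO that was picked out here after its values were seen, ran from 1.48 to 7.33 CPM in Q0 and from 2.68 to 25.2 CPM in Q21. Its log2 difference was 1.49 ± 0.32 (edgeR adjusted p = 0.381, DESeq2 adjusted p = 0.0161).

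Of the flavonoid list 8 of 10 were tested and all 8 had negative differences, with a median of -0.44. At an unadjusted p under 0.05, 4 of them were lower, as were 3.63% of all loci tested. Besides CHS these were CHI, chalcone isomerase, at -0.41 ± 0.17, FLS1, flavonol synthase, at -0.67 ± 0.19, and MYB12, the activator of flavonol genes, at -0.80 ± 0.30. The iron uptake genes had a median of -0.76 and, in this fit over both temperatures, none at an unadjusted p under 0.05. IRT1, the root iron transporter, ran from 10.00 to 101 CPM in Q0 and from 0 to 98.4 CPM in Q21. At 27 °C alone, DESeq2 called BHLH39 of this list as lower in Q21 (-1.44 ± 0.32, DESeq2 adjusted p = 0.0199). For the 27 °C response of Q21 minus that of Q0, DESeq2 called BHLH39 and BHLH101 as lower and FER1 as higher. EdgeR called none of these. The heat shock median was -0.03 over 13 genes, light harvesting 0.14 over 15, morning clock 0.31 over 12 and evening clock 0.21 over 11. The cold response median was -0.18 over 8 genes, defence -0.07 over 6, and dark and sugar starvation 0.33 over 6. Some genes stand in more than 1 list, such as LUX, GI, PIF4 and PIF5.

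**Figure D3:**
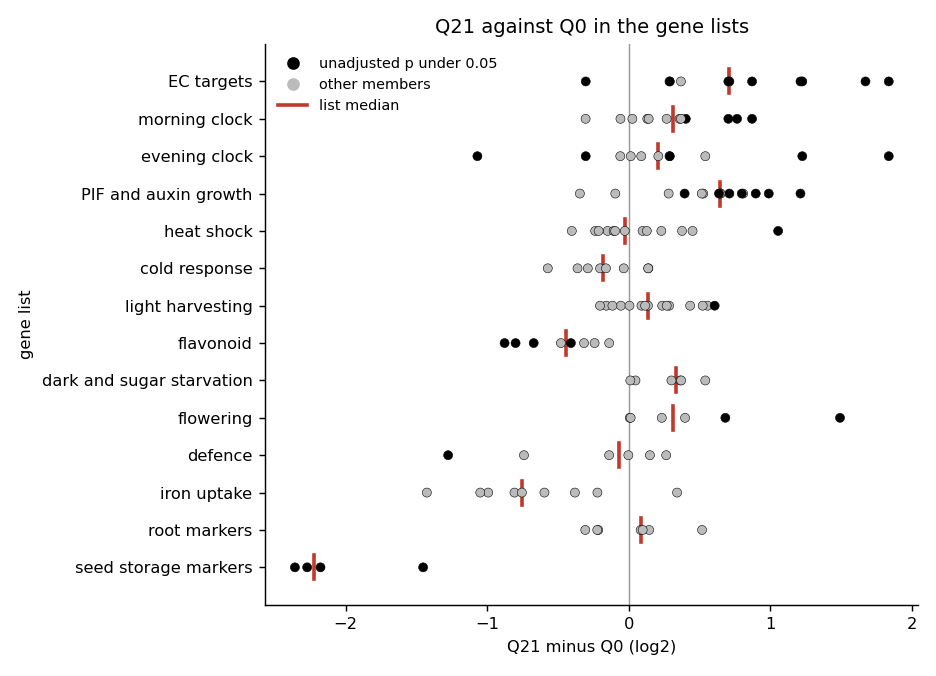
Log2 difference of Q21 minus Q0 (x axis) for the tested members of 14 gene lists (y axis), 1 point per gene, black where the unadjusted p was under 0.05, with the list median as a red line. The EC target median is 0.71 and the seed storage median is -2.23, and the lists share some genes.

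AT2G25920, picked out after its values were seen, is the annotated neighbour of ELF3 on chromosome 2. Its raw counts were 0 to 6 in the 5 Q0 libraries and 7 to 74 in the 5 Q21 libraries. Over the 33 RNA libraries of the series other than Q0, its counts ran from 7 to 78. Every library of both Q0 lines was thus below every other RNA library of the series in raw count, which is not scaled for depth. Pooled over libraries and scaled to CPM the level was 0.216 in Q0 and 2.33 in Q21. By library, it was at 2.92, 2.51 and 3.34 CPM in Q21 #7 and lower in Q21 #23, at 1.26 and 0.853 CPM. The Q0 libraries ran from 0 to 0.521 CPM. The log2 difference of Q21 minus Q0 was 3.76 ± 0.55 (edgeR adjusted p = 0.0973), and 3.78 ± 0.46 with an adjusted p of 0.000764 in the fit over 38 libraries. AT2G25920 gave 3.74 ± 0.57 in Q7 against Q0, which shares the Q0 libraries.

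The Q7 lines were split between the levels of the other constructs. LUX in Q7 #6 was at 25.4 CPM at 22 °C and 63.8 CPM at 27 °C, within or above the Q21 levels of those temperatures. In Q7 #17 at 22 °C it was at 9.84 CPM, next to the Q0 levels of 9.26 and 7.98 CPM. PIF5 was at 12.8 and 24.2 CPM in Q7 #6 and at 7.89 CPM in Q7 #17, between the Q0 and the Q21 #7 levels at 22 °C and above that of Q21 #23.

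Q7 against Q0 gave 0 calls (0%) by edgeR, with 550 loci at an unadjusted p under 0.05, and 6 calls by DESeq2, all higher in Q7. The DESeq2 calls included LUX, PIF5, AT1G15830, AT2G25920 and HSP17.4, a small heat shock protein. LUX gave 1.22 ± 0.26 and PIF5 1.25 ± 0.24 in Q7 against Q0, beside 1.23 ± 0.24 and 1.21 ± 0.22 in Q21 against Q0; both comparisons use the same Q0 libraries. Q21 against Q7 gave 0 calls (0%) by edgeR, with 1377 loci below 0.05 before adjustment, and 8 by DESeq2. Between Q21 and Q7 the LUX difference was 0.00 ± 0.26, PIF5 -0.03 ± 0.24 and PIF4 0.38 ± 0.28, and that of XTH15, one of the DESeq2 calls, was 0.88 ± 0.18.

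Between the lines of one construct, ELF3 differences in Q7 and Q21 were as large as that between Q21 and Q0, and like it none was called. In Q7, line #17 minus line #6 gave 1.15 ± 0.33 for ELF3 and -1.26 ± 0.28 for LUX, with 0 calls (0%) by edgeR, 209 loci at an unadjusted p under 0.05 and 0 calls by DESeq2. The median over the 11 targets was -0.47 in that comparison. In Q21, line #23 minus line #7 gave 1.18 ± 0.32 for ELF3, -0.40 ± 0.23 for LUX, -0.37 ± 0.28 for PIF5 and -0.98 ± 0.27 for PIF4. The median over the 11 targets between the Q21 lines was -0.19, smaller in size than between the Q7 lines. In Q0, line #15 minus line #2 gave 0.44 ± 0.28 for ELF3, -0.25 ± 0.23 for LUX and -0.55 ± 0.29 for PIF5. That comparison had 0 calls (0%) by edgeR, with 461 loci at an unadjusted p under 0.05, and 4 by DESeq2. It had 3 edgeR calls without Q0 #15 at 27 °C replicate 1, without Q21 #23 at 22 °C or without Q21 #23 at 27 °C, and 1 without Q0 #2 at 27 °C.

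The 1 locus (0.00535%) called between the Q21 lines was QQS, a gene known only from Arabidopsis thaliana that affects starch content. QQS was at 64.4 CPM at 22 °C and 46.5 CPM at 27 °C in Q21 #23, against 4.58, 3.15 and 3.03 CPM in Q21 #7. In the Q0 and Q7 libraries it ran from 1.09 to 11.7 CPM, with the highest of these in Q7 #17. The log2 difference of line #23 minus line #7 was 3.57 ± 0.39 (edgeR adjusted p = 0.0288). With each of the 13 libraries left out in turn, it ran from 2.64 to 3.78 and was called in 7 cases. The call was lost without Q0 #15 at 27 °C replicate 2, any 1 of the 3 Q21 #7 libraries, or either Q7 #6 library, with adjusted p-values of up to 0.243. At an unadjusted p under 0.05, edgeR gave 1947 loci between the Q21 lines, beside 1243 between Q21 and Q0. DESeq2 called 22 loci between the Q21 lines. EdgeR called 2 without Q0 #15 at 22 °C, Q0 #15 at 27 °C replicate 1 or Q21 #23 at 22 °C. Without Q21 #23 at 27 °C, edgeR called 1183 loci, a fit in which line #23 is left with the library that is the only one of its prefix at 22 °C.

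At 22 °C alone, edgeR called 2 loci (0.0107%), both lower in Q21, and DESeq2 called 172. PPDK, pyruvate orthophosphate dikinase, was at 86.1 and 48.8 CPM in Q0 #2 and #15 at 22 °C, and at 14.1 and 43.1 CPM in Q21 #7 and #23. BZS1, a B-box protein of brassinosteroid and light signalling, was at 40.3 and 30.0 CPM in Q0 and at 10.2 and 26.5 CPM in Q21. In both genes Q21 #7 stood lower than the other libraries of 22 °C, and Q21 #23 lay just below the lower Q0 line. Fitted with the title prefix term, the log2 differences at 22 °C were -2.43 ± 0.29 for PPDK and -1.75 ± 0.22 for BZS1 (edgeR adjusted p = 0.0441 for each). Q21 #23 was the only library of its prefix at 22 °C, so its adjustment drew on libraries at 27 °C. The fitted differences are therefore not plain differences of the levels above. Over the 13 fits with 1 library left out, PPDK was called in 6 and BZS1 in 5. The count of calls moved by over 1.5 times without any library except Q7 #6 at 27 °C. It was 0 without Q0 #15 at 27 °C replicate 2, Q21 #23 at 27 °C, Q21 #7 at 27 °C replicate 1 or 2, Q7 #17 or Q7 #6 at 22 °C. It was 1 without Q0 #15 or Q0 #2 at 22 °C, 5 without Q0 #2 at 27 °C, 37 without Q0 #15 at 27 °C replicate 1 and 38 without Q21 #23 at 22 °C. Without Q21 #7 at 22 °C it was 2541, and Q21 at 22 °C was then 1 library, the only one of its prefix at that temperature.

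At 27 °C alone, edgeR called 0 loci (0%) between Q21 and Q0, with 909 below 0.05 before adjustment, while DESeq2 called 16, among them LUX and PIF5 as higher. LUX differed by 1.11 ± 0.40 at 22 °C and by 1.31 ± 0.30 at 27 °C, and PIF5 by 0.97 ± 0.36 and 1.31 ± 0.27. The difference of the 27 °C responses, Q21 minus Q0, was 0.20 ± 0.47 for LUX, 0.34 ± 0.43 for PIF5 and -0.04 ± 0.48 for PIF4. EdgeR called 0 loci (0%) in that test, with 1966 below 0.05 before adjustment, while DESeq2 called 93. The smallest edgeR adjusted p, 0.0526, was that of PPDK and BZS1, at 2.64 ± 0.34 and 1.99 ± 0.25. The edgeR count was 2134 without Q21 #7 at 22 °C, 12 without Q0 #15 at 27 °C replicate 1 or without Q21 #23 at 22 °C, 10 without Q0 #2 at 27 °C and 1 without Q0 #15 at 22 °C.

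Ordered by ELF3 level at 22 °C, the 6 libraries were in the reverse order of their LUX level. From the lowest ELF3 upward, Q7 #6, Q21 #7, Q21 #23, Q7 #17, Q0 #2 and Q0 #15 had LUX at 25.4, 21.6, 17.0, 9.84, 9.26 and 7.98 CPM. PIF5, GI and PIF4 did not keep this order throughout. PIF5 was at 6.86 CPM in Q21 #23 and 7.89 CPM in Q7 #17, and GI was highest in Q21 #23, at 2.29 CPM. PIF4 was at 11.3 CPM in Q21 #7 and 7.66 CPM in Q7 #6. Q21 #23 and Q7 #17 had similar ELF3 levels, 117 and 121 CPM, and LUX levels of 17.0 and 9.84 CPM, with title prefixes that differ. At 27 °C LUX did not follow the order throughout either. Q21 #23 had more ELF3 than Q0 #15 replicate 2, at 109.8 against 83.2 CPM, and also more LUX, at 52.4 against 26.6 CPM, with prefixes 178 and 184.

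**Figure D4:**
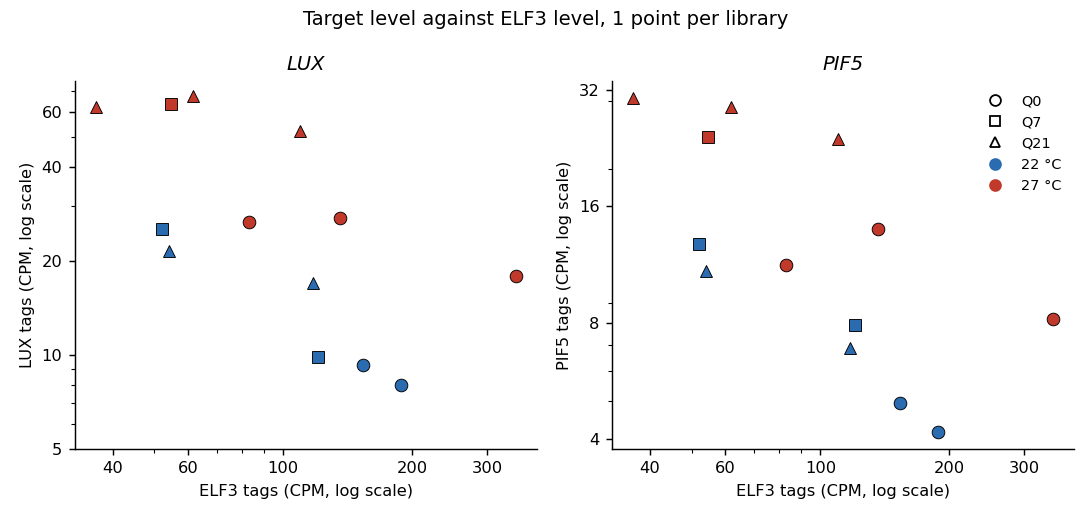
LUX (left) and PIF5 (right) tags against ELF3 tags, both in CPM on log axes, 1 point per library, with shapes for the construct and colours for the temperature. At 22 °C LUX goes from 25.4 to 7.98 CPM as ELF3 goes from 52.0 to 188 CPM, and at 27 °C the Q21 and Q7 points lie above all Q0 points.

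In a fit chosen after seeing the data, with the log2 ELF3 level, temperature and title prefix but no construct term, edgeR called 5 loci (0.0267%), and DESeq2 called 22. ELF3 itself was among the calls of both tools, by construction. LUX changed by -0.76 ± 0.09 per unit of log2 ELF3 level (edgeR adjusted p = 0.00689) and PIF5 by -0.75 ± 0.10 (edgeR adjusted p = 0.0124). PSAD-2, a subunit of photosystem I, gave -0.61 ± 0.09 and AT5G38005 -0.63 ± 0.09, with edgeR adjusted p-values of 0.0193 and 0.0224. With 1 library left out, LUX was called in 12 of 13 fits (not without Q7 #6 at 22 °C, adjusted p = 0.0576), PIF5 in 11 (not without Q7 #6 at 22 °C or Q21 #7 at 27 °C replicate 1), PSAD-2 in 8 and AT5G38005 in 5. PSAD-2 was not called without Q0 #15 at 27 °C replicate 2, Q21 #7 at 27 °C replicate 1 or 2, or Q7 #6 at 22 °C or 27 °C. AT5G38005 was not called without any 1 of 8 libraries, namely the 3 of Q0 #15, Q0 #2 at 22 °C, Q21 #23 at 22 °C, Q21 #7 at 27 °C replicate 1 or 2, and Q7 #6 at 22 °C. The count of 5 became 2 without Q7 #6 at 22 °C or Q21 #7 at 27 °C replicate 1, and 3 without Q0 #15 at 27 °C replicate 2 or Q21 #7 at 27 °C replicate 2. Of the 11 targets 7 had a negative and 0 a positive slope at an unadjusted p under 0.05, with a median of -0.31. Of the PIF and auxin growth genes 9 of 15 had a negative slope at that level, with a median of -0.47, and over all loci tested 2.91% had a negative and 2.23% a positive one.

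With both construct and ELF3 level in the fit, the Q21 minus Q0 difference was 0.53 ± 0.21 for LUX and 0.63 ± 0.20 for PIF5, and edgeR called 0 loci (0%) between the constructs, with 3243 at an unadjusted p under 0.05. With Q0 #15 at 27 °C replicate 1 also left out, the differences were 0.40 ± 0.22 and 0.75 ± 0.22. In the fit of all 13 libraries with both terms, the LUX slope on ELF3 was -0.59 ± 0.12 (edgeR adjusted p = 0.189). That of PIF5 was -0.50 ± 0.12 (edgeR adjusted p = 0.223). In the same fit of 13 libraries, the PIF4 difference became -0.06 ± 0.22. GI gave 1.48 ± 0.63, PRR7 0.67 ± 0.34, LNK4 1.48 ± 0.35 and BBX28 0.56 ± 0.65. The median of the 11 targets was 0.56 in that fit, against 0.71 without the ELF3 term, and that of the PIF and auxin growth list was -0.06, against 0.65. Over all loci tested the median was -0.004 in that fit. The morning clock list, which shares some genes with the targets, had a higher median than the targets, 0.64, against 0.31 without the ELF3 term. The lower flavonoid and seed storage levels gave medians of -0.62 and -1.59. ELF3 level and construct move together in these libraries, so their contributions to the target levels cannot be told apart fully.

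**Figure D5:**
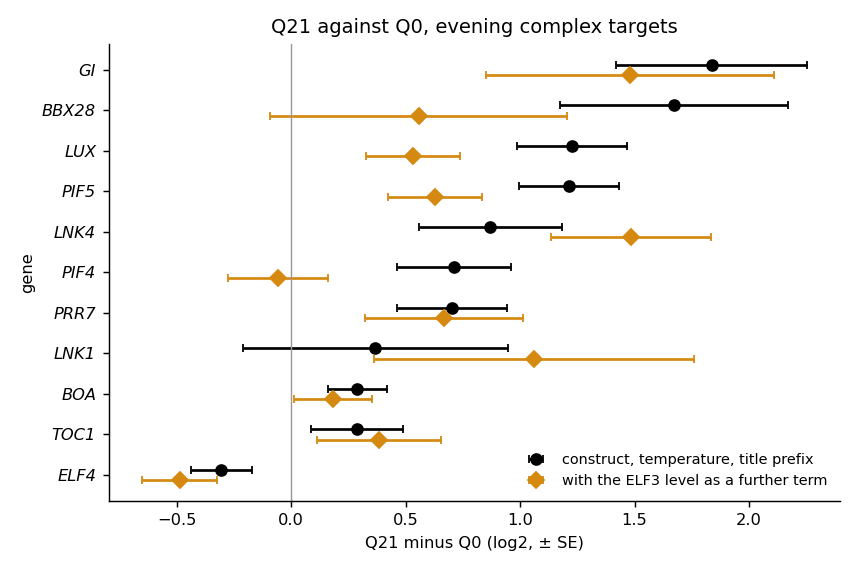
Log2 difference of Q21 minus Q0 with its standard error (x axis) for 11 evening complex targets (y axis), in the fit with construct, temperature and title prefix (black circles) and with the ELF3 level added (orange diamonds). With the ELF3 term LUX goes from 1.23 to 0.53 and PIF4 from 0.71 to -0.06, whereas PRR7 goes from 0.70 to 0.67.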

How the data were processed

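The 13 libraries were grouped by their genotype and temperature labels. RNA of pooled seedlings was made into QuantSeq 3' FWD libraries, per the labels' protocols. The submitters' processing notes name STAR and TAIR10, and no source used here names the counting tool. The deposited values are raw read counts per locus, whole numbers, for 32833 loci, of which 32548 (99.1%) matched a TAIR10.1 gene table used for symbols and neighbours. The 5 rows naming no gene were left out.

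Counts were fitted with edgeR 4.0.16 in R 4.3.3 (TMM, quasi-likelihood test, Benjamini-Hochberg over all loci, threshold 0.05), and loci reaching 1 CPM in 3 or more libraries were kept. Replicate lines of a construct shared a term, and line or construct-by-temperature terms gave the other comparisons. DESeq2 1.42.0 and other settings served as alternatives. The code was tested on simulated data. Named genes were ELF3, all EC targets, the loci of smallest p per direction whose mean reached 5 CPM, the 4 other list members of smallest p, called loci of the line comparisons, and others said to be picked after their values were seen. The libraries, the 14 gene lists and the tests were chosen with earlier results of these data known.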

Additional observations from a re-analysis of the deposited data

Results flagged for a closer look

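In 62 groups of 5 libraries (31 named genes, in Q0 and in Q21), 1 library stood far from the other 4 in 2 cases, and chance flags about 1 in 20 such groups. Both were Q0 #15 at 27 °C replicate 2, the only Q0 library of prefix 184. Its GI level was 0.977 CPM and its OLEO2 level was 24.6 CPM, above the other Q0 libraries in each gene.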

How the results depend on the processing

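The edgeR counts of called loci depended on the tool and the filter. With DESeq2 they were 31 for Q21 against Q0, 6 for Q7 against Q0, 8 for Q21 against Q7, 172 and 16 for Q21 against Q0 at 22 °C and 27 °C, 93 for the difference of the 27 °C responses, 4 and 22 for the Q0 and Q21 lines, and 22 for the ELF3 level. Without the filter they were, in that order, 60, 7, 40, 921, 183, 582, 8, 15 and 9. Of the 31 and 60 loci for Q21 against Q0, 25 were shared. Without the title prefix term the counts were 0 at 22 °C, 3 for the Q21 lines and 3 for the ELF3 level. Q21 against Q0 gave 4 calls from line means, 0 of them among the 31 of DESeq2, and 3 over 38 libraries, 2 of them among the 31. The ELF3 level with a construct term gave 2. In every fit on the ELF3 level, ELF3 itself was among the loci tested, and a call of it follows by construction. The cause of these changes in the counts was not tested.

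With each library left out in turn, the counts ran from 0 to 7 for Q21 against Q0, 0 to 2541 at 22 °C, 0 to 2134 for the difference of responses, 0 to 3 for the Q0 lines, 0 to 1183 for the Q21 lines and 2 to 7 for the ELF3 level. They were 0 throughout for Q7 against Q0, Q21 against Q7, the 27 °C comparison and the Q7 lines.

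Of 748 values of named genes under these settings, 8 changed sign. PIF4 became -0.0569 with the ELF3 level as a covariate, and -0.235 when Q0 #15 at 27 °C replicate 1 was also left out; PSAD-2 became -0.448 and -0.239. BZS1 became 0.34 with that pair of choices, 0.0263 without the prefix term and 0.157 without Q21 #7 at 22 °C, where PPDK became 0.0369. With 1 library left out BZS1 ran from -0.48 to 0.157 and PPDK from -0.713 to 0.0369. The labels give every sample as a single replicate, so no replicate numbers pair the libraries, and the title prefix was the term that grouped them. Levels near 1 CPM, such as GI and BBX28, rest on few tags, and with 1 or 2 libraries per line and temperature small differences are hard to call.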
